A study of Mus musculus with 6 samples.

Results

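*Malat1*, *Neat1*, *Kcnq1ot1*, *H19*, *Pvt1* and *Tug1* are long noncoding RNAs, transcripts that are not translated and many of which stay in the nucleus. They were taken by name from the 55367 gene names of an RNA-seq count table, and all 6 were counted and tested. The table comes from primary mouse keratinocytes, epidermal cells grown from the skin of newborn pups without immortalization, with and without iASPP, the protein encoded by *Ppp1r13l*. The comparison asks which transcripts change when iASPP is deleted.

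*Malat1* gathers in nuclear speckles, bodies rich in splicing factors, and *Neat1* is the scaffold around which paraspeckle proteins assemble. *H19* and *Kcnq1ot1* come from neighbouring imprinted clusters, where 1 parental copy is silent: *H19* is made from the maternal copy and is the precursor of the microRNA miR-675, and *Kcnq1ot1* is made from the paternal copy and silences genes around it in cis. *Pvt1* lies downstream of the oncogene *Myc*, and *Tug1* is a widely expressed RNA first known from the retina.

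All 6 cultures carried the genotype Ppp1r13l flox/flox;Cre+ERT on a mixed C57BL/6 and 129/Sv background, so the controls also carried the floxed alleles and the Cre recombinase, which is expressed from the *Rosa26* locus and is therefore not limited to keratinocytes. Cells of 3 batches (B1 to B3) were split between a dish with tamoxifen, where exon 8 of *Ppp1r13l* is removed (iASPP-KO), and one grown with no drug (iASPP-WT). The medium was changed at 24 h of culture. Tamoxifen is given as 1 mM in the sample labels, a concentration that the published methods give in a smaller unit. Because the iASPP-WT cultures received no drug, tamoxifen and deletion cannot be told apart. Libraries were made by removing ribosomal RNA, not by capturing poly(A) tails, so that tailed and tailless transcripts both gave reads, which were single and 42 nt long.

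Library totals ran from 20202517 to 25157117 counts, so that 3 counts correspond to 0.119 to 0.148 counts in 1000000 (CPM). *Ppp1r13l* had 320, 395 and 139 counts in iASPP-KO batches 1 to 3 and 697, 1100 and 472 in iASPP-WT (log2 fold change -1.45 ± 0.18 SE, n = 3 per condition, edgeR adjusted p = 0.00296), counted over all of its exons and not the deleted one alone. Markers of keratinocytes (*Krt5*, *Krt14*, *Trp63* and 5 others) summed to 23656 to 27259 CPM in iASPP-KO and 24484 to 28234 CPM in iASPP-WT. None of the 8 had an edgeR adjusted p under 0.05, which does not show that each was unchanged. Melanocyte markers summed to 419 to 1022 CPM and 354 to 1090 CPM, and none of the 6 passed that threshold. The 8 leukocyte markers summed to 25.1, 32.4 and 73.0 CPM in iASPP-KO batches 1 to 3 and to 14.2, 17.8 and 56.9 CPM in iASPP-WT, higher in iASPP-KO in each batch. Of the 5 tested, 1 was higher, *Csf1r*, a macrophage receptor gene (log2 fold change 1.11 ± 0.21, edgeR adjusted p = 0.0206). *Csf1r* made up most of the sum in batches 1 and 2 (18.5 and 28.7 CPM in iASPP-KO, 9.07 and 15.1 CPM in iASPP-WT). It was lowest in batch 3 (5.22 and 1.91 CPM), where the sum was highest. Other leukocyte markers went both ways: *Ptprc* had 7 counts in iASPP-KO batch 1 against 25 in iASPP-WT, and *Lyz2* 108 against 61. The part of leukocytes in any result was not tested. The 10 fibroblast markers (*Col1a1*, *Pdgfra*, *Lum* and others) summed to 42.4, 56.1 and 489 CPM in iASPP-KO batches 1 to 3 and to 41.4, 52.0 and 705 CPM in iASPP-WT, so both cultures of batch 3 stood apart. Endothelial markers reached 12.997 CPM at most and skeletal muscle markers 2.97 CPM, with *Myod1* at 0 in all 6 libraries. In bulk RNA of this kind, fewer cells of a type and less RNA per cell cannot be told apart.

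*Malat1* and the long form of *Neat1* do not end in a conventional poly(A) tail. Their 3′ ends are cut from a longer transcript and are known to be held by a triple helix between U-rich stretches and an A-rich end, and the 2 ends are shown here because they are what these RNAs share in sequence. The stretches below were read from GENCODE vM21 transcripts on GRCm38, 5′ to 3′ on the minus strand, from chr19:5795982-5796091 (*Malat1*) and chr19:5824708-5824817 (*Neat1*). Capitals mark words of 10 or more bases found in both.
Malat1: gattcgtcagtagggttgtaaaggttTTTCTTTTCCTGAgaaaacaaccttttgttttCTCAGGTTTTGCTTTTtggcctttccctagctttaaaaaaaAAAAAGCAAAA
Neat1: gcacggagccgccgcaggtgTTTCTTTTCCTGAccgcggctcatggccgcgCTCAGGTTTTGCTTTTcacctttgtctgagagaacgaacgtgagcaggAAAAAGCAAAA
The shared words were 13, 16 and 11 bases long and stood in the same order in both RNAs. Among transcripts of 55341 gene names, the first occurred in 21 names, the second in 2 and the third in 376, and *Malat1* and *Neat1* were the 2 names that held all 3. The *Neat1* stretch ends the annotated transcript, whereas 292 bases follow in that of *Malat1*.

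The promoter table built from RefSeq for GRCm38 (250 bases before to 50 after each start) held *Malat1*, *Kcnq1ot1* and *Tug1* of the 6. The *Malat1* promoter (chr19:5802623-5802922, minus strand) is printed because *Malat1* showed the largest of the called changes among these RNAs, with capitals at the word TGACGT on either strand, the core bound by CREB and ATF factors.
Malat1 promoter: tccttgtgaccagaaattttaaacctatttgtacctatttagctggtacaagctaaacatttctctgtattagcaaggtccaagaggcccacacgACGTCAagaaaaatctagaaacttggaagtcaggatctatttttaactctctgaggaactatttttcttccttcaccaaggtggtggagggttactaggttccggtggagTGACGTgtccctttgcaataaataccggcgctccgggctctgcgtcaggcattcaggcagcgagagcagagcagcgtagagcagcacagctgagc
The word TGACGT stood 2 times in this window and 1 time in that of *Kcnq1ot1*, and 7.51% of 32851 promoters held it. The AP1 word TGANTCA, searched on both strands in the same way, was found in none of these 3 windows and in 7.81% of all promoters. The other words searched were CACGTG (7.15% of promoters), CCAAT (37.4%), GGGCGG (35.7%) and TATAAA (13.6%), of which CCAAT stood 3 times in *Kcnq1ot1* and GGGCGG 1 time in *Tug1*. None of these words contains another, and a word found in a window is not a site of binding.

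The microRNA made from *H19* is shown with its seed (bases 2 to 8) in capitals, since its hairpin lies within the counted *H19* exon, at chr7:142577112-142577133 (5p arm) and chr7:142577078-142577099 (3p arm) on the minus strand.
mmu-miR-675-5p: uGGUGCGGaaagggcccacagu
mmu-miR-675-3p: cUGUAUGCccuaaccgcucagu
The name *Mir675* was listed at 0 in all 6 libraries. A read that meets 2 names on the same strand was assigned to neither, so this 0 carries no information on the microRNA.

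The RNAs differed widely in level. Per kilobase of exon, *Malat1* stood first in every library (593 to 4555 CPM per kb), and its lowest value exceeded the highest of any other of the 6. *H19* (62.7 to 159 CPM per kb) and *Neat1* (27.4 to 136 CPM per kb) followed, with *Neat1* ahead in iASPP-KO batches 1 and 2 and *H19* ahead in the other 4 libraries, so their order is not separated by the spread. *Tug1* came next (15.2 to 17.5 CPM per kb), then *Pvt1* (0.761 to 1.40 CPM per kb) and last *Kcnq1ot1*, annotated as 1 exon of 93.1 kb (0.226 to 0.516 CPM per kb), in all 6 libraries. The ranges of *Tug1*, *Pvt1* and *Kcnq1ot1* did not overlap.

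With batch and condition in the model, *Malat1* and *Neat1* were significantly higher in iASPP-KO keratinocytes, *H19* was significantly lower, and *Kcnq1ot1*, *Pvt1* and *Tug1* did not pass the threshold (adjusted p under 0.05, edgeR). Thus 3 of the 6 were called, against 4.12% of the 14916 names tested: 2 rose, where 2.17% of all names did, and 1 fell, where 1.95% did. The iASPP-KO culture was above its iASPP-WT partner in all 3 batches for 4 of the 6 (19.6% of names tested) and below it for 1 (19.5%). Among 890 tested names of the long noncoding types, 7 were higher (0.787%) and 1 was lower (0.112%), against 2.04% and 2.13% of protein-coding names. *Malat1* and *Neat1* were 2 of these 7, and *H19* was the 1 lower. All 3 were among the 11 of the 890 that stood above *Tug1* in level, and the part of level in these shares was not tested. The median log2 fold change was 0.09 over the type and 0.01 over all names tested. The comparison depends on matching cultures by batch: without a batch term no name passed the threshold with edgeR, and 691 had an unadjusted p under 0.05.

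**Figure D1:**
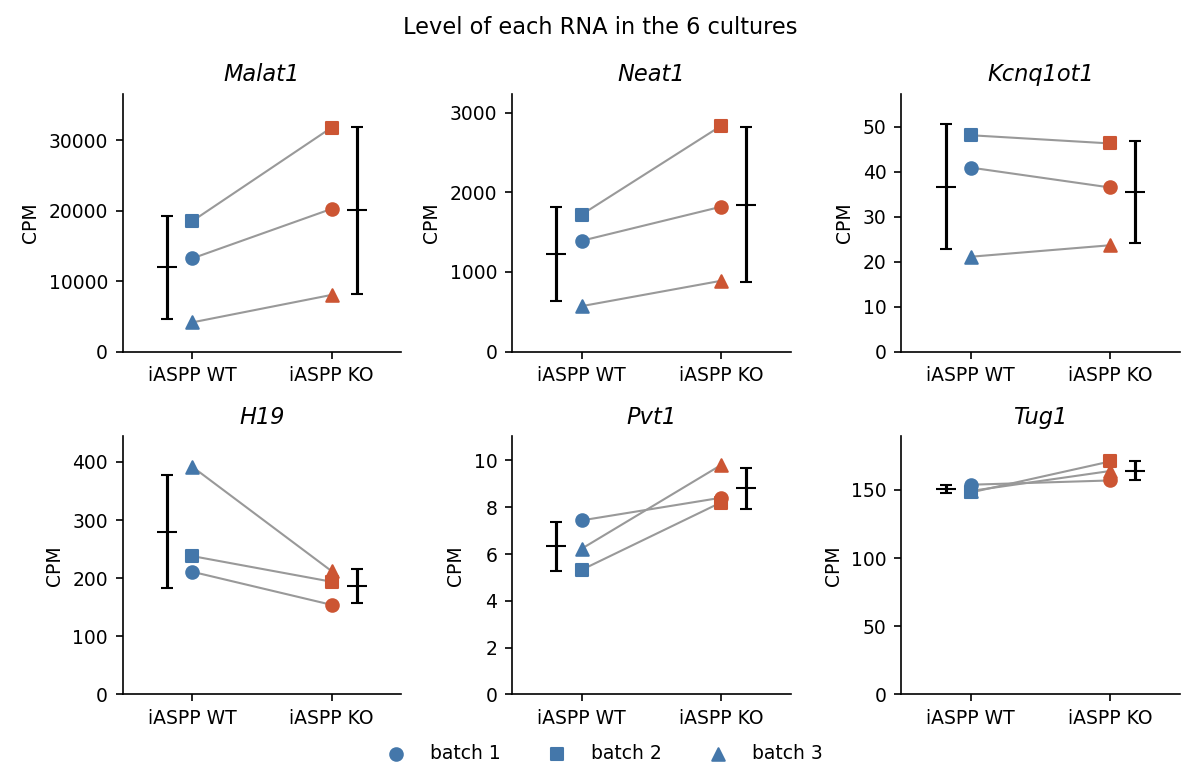
Level of each RNA in CPM (vertical axis, from 0, a separate linear scale per panel) in iASPP-WT (blue) and iASPP-KO (orange) cultures. Symbols are single libraries by batch, grey lines join cultures of the same batch, and black bars are the mean ± SD of 3 libraries: every *Malat1* and *Neat1* line goes up and every *H19* line goes down, while the spread between batches is wider than the step within a batch for *Malat1* and *Neat1*.

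*Malat1* (ENSMUSG00000092341.3, chr19:5795690-5802672, minus strand, 6983 exon bases) was among the 14 most counted names in every library. It measured 20260, 31804 and 8045 CPM in iASPP-KO batches 1 to 3 and 13227, 18521 and 4144 CPM in iASPP-WT. Batch 2 was highest and batch 3 lowest in both conditions, and the groups overlapped although each iASPP-KO culture exceeded its partner. The means were 20036 ± 11881 CPM and 11964 ± 7271 CPM (SD, n = 3 each). *Malat1* rose by a log2 fold change of 0.78 ± 0.11 (SE, 95% interval 0.55 to 1.02, edgeR adjusted p = 0.00398), which is 1.72-fold. The 3 batches gave 0.62, 0.78 and 0.96 on the log2 scale. As a share of all counts, *Malat1* took 1.86%, 3.01% and 0.857% in iASPP-KO and 1.32%, 1.80% and 0.461% in iASPP-WT.

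*Neat1* (ENSMUSG00000092274.3, chr19:5824708-5845478, minus strand, 20771 exon bases) ends 22.04 kb upstream of the start of *Malat1*, on the same strand. It measured 1817, 2831 and 888 CPM in iASPP-KO batches 1 to 3 and 1390, 1719 and 570 CPM in iASPP-WT. The order of batches was that of *Malat1*, and the groups again overlapped between but not within batches. From means of 1226 ± 592 CPM in iASPP-WT to 1845 ± 972 CPM in iASPP-KO (SD, n = 3 each), *Neat1* rose by a log2 fold change of 0.58 ± 0.11 (SE, 95% interval 0.33 to 0.83, edgeR adjusted p = 0.0203), with 0.39, 0.72 and 0.64 in the single batches. Leaving out batch 2 raised the adjusted p to 0.172, with a log2 fold change of 0.52. A short and a long form of *Neat1* share their 5′ end, of which the long form builds paraspeckles, and counts per name do not separate them.

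The proportion of the 2 RNAs also varied. *Malat1* had 11.2, 11.2 and 9.06 times the counts of *Neat1* in iASPP-KO batches 1 to 3 and 9.52, 10.8 and 7.27 times in iASPP-WT. Each iASPP-KO ratio was above the iASPP-WT ratio of its batch, and both ratios were lowest in batch 3.

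The batches themselves differed. An F test of the batch terms passed for 4 of the 6 (15.8% of names tested): *Malat1* (4.20-fold between the highest and lowest batch, edgeR adjusted p = 4.3e-05), *Neat1* (3.10-fold, 0.00019), *Kcnq1ot1* (2.11-fold, 0.00623) and *H19* (1.60-fold, 0.0364). *Malat1*, *Neat1* and *Kcnq1ot1* were lowest in batch 3 and *H19* was highest there, while *Pvt1* (adjusted p = 0.806) and *Tug1* (0.981) did not pass. Without batch 3 the batch differences of *Kcnq1ot1* (adjusted p = 0.473) and *H19* (0.367) no longer passed, nor did that of *H19* without batch 1 (0.122). The high fibroblast marker sums lay in the same batch. Counts on the GENCODE type TEC, transcribed stretches whose gene models await experiments and many of which are unspliced, took 0.0693% and 0.0699% of the library in batch 3 (iASPP-KO and iASPP-WT) and 0.0994% to 0.123% in the other 4 libraries. The part of either in the batch differences was not tested.

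*H19* (ENSMUSG00000000031.16, chr7:142575529-142578143, minus strand, 2460 exon bases) measured 154, 194 and 212 CPM in iASPP-KO batches 1 to 3 and 211, 238 and 392 CPM in iASPP-WT. Each iASPP-KO culture was below its partner, and the groups overlapped slightly, since 212.2 CPM in iASPP-KO batch 3 exceeded 211.1 CPM in iASPP-WT batch 1. The means were 187 ± 29.7 CPM and 280 ± 97.4 CPM (SD, n = 3 each). *H19* fell, with a log2 fold change of -0.54 ± 0.13 (SE, 95% interval -0.84 to -0.25, edgeR adjusted p = 0.0490) that lay at the threshold. Single batches gave -0.45, -0.30 and -0.88. The call was lost without batch 1 (adjusted p = 0.114) and without batch 2 (0.0905), and held without batch 3 (0.0326, log2 fold change -0.37).

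*H19* is also abundant in mesenchymal cells, and fibroblast markers were measured beside it. In batch 3 the marker sum and *H19* were both highest and both lower in iASPP-KO. In batches 1 and 2 the sum of all 10 was slightly higher in iASPP-KO (42.4 against 41.4 CPM and 56.1 against 52.0 CPM), which rested on *Pdgfra*, a growth factor receptor gene. The other 9 markers, split off after the values were seen, summed to 26.1, 31.7 and 453 CPM in iASPP-KO batches 1 to 3. In iASPP-WT they summed to 34.8, 44.0 and 657 CPM. Each iASPP-KO sum was the lower one, as for *H19*, but single markers among the 9 went both ways. Of the 10 fibroblast markers, 2 passed the threshold as lower, the collagen genes *Col1a2* (log2 fold change -0.55, edgeR adjusted p = 0.0428) and *Col3a1* (-0.87, 0.0269), and none as higher. Single batches gave -0.45, -0.72 and -0.47 for *Col1a2* and -0.43, -1.44 and -0.74 for *Col3a1*. These 2 were also the most counted of the 10 in batch 3. *Dcn* did not pass (log2 fold change -0.02, edgeR adjusted p = 0.980). *Twist2* had 15, 18 and 139 counts in iASPP-KO batches 1 to 3 and 4, 20 and 121 in iASPP-WT. The part of fibroblasts in the *H19* difference was not tested.

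**Figure D2:**
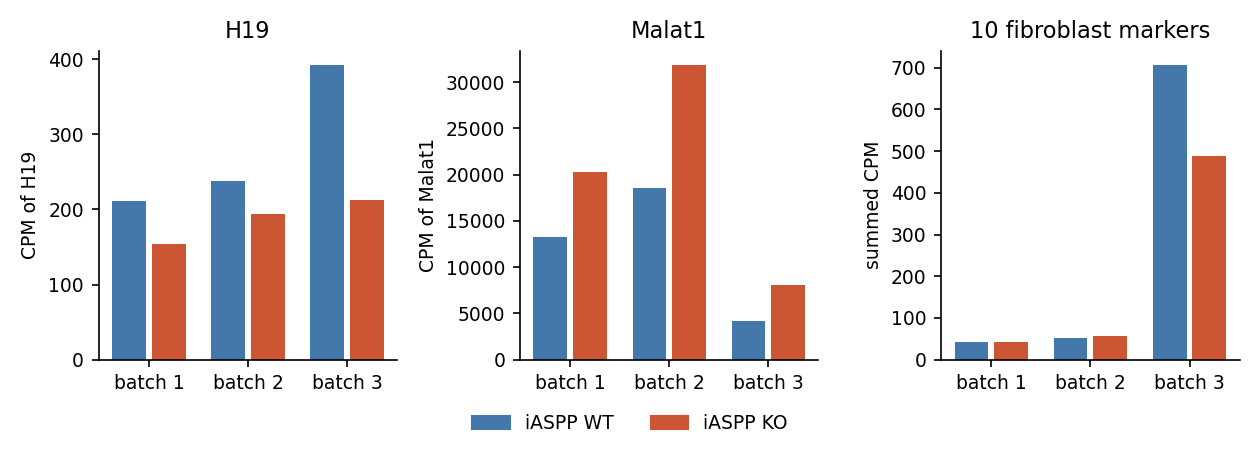
*H19*, *Malat1* and the summed level of 10 fibroblast markers in CPM (vertical axes from 0) for iASPP-WT (blue) and iASPP-KO (orange) in each batch, 1 bar per library. The marker sum is 41.4 to 56.1 CPM in batches 1 and 2 and 489 to 705 CPM in batch 3, where *H19* is highest in iASPP-WT and *Malat1* is lowest.

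*Kcnq1ot1* (chr7:143203458-143296549, minus strand, within *Kcnq1* on the opposite strand) showed no difference that the libraries could resolve. It measured 36.5, 46.3 and 23.6 CPM in iASPP-KO batches 1 to 3 and 40.9, 48.1 and 21.1 CPM in iASPP-WT, with the batches in the same order in both conditions. The log2 fold change was -0.02 ± 0.14 (SE, 95% interval -0.34 to 0.30, edgeR adjusted p = 0.965), and batch 3 gave 0.16 against -0.16 and -0.06 in the others. The interval leaves room for a change of up to about those bounds in either direction. *Kcnq1*, the potassium channel gene that *Kcnq1ot1* crosses, had 7 counts in iASPP-WT batch 2 and 0 in the other libraries.

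*Pvt1* (chr15:62037986-62378096, plus strand) was the least counted of the 6, with 130 to 231 reads per library. It measured 8.404, 8.202 and 9.80 CPM in iASPP-KO batches 1 to 3 and 7.44, 5.32 and 6.23 CPM in iASPP-WT. No iASPP-KO value reached down to the highest iASPP-WT value, yet the log2 fold change of 0.48 ± 0.26 (SE, 95% interval -0.09 to 1.06) did not pass (edgeR adjusted p = 0.400). *Myc*, 47.6 kb upstream, had a log2 fold change of 0.38 ± 0.17 (edgeR adjusted p = 0.299), with 0.59, -0.13 and 0.66 in the single batches.

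*Tug1* (chr11:3639785-3649673, minus strand) was the steadiest. It measured 157, 171 and 164 CPM in iASPP-KO batches 1 to 3 and 154, 148 and 149 CPM in iASPP-WT. The groups were close but did not overlap, with means of 164 ± 6.96 CPM and 150 ± 3.01 CPM (SD, n = 3 each). The log2 fold change was 0.12 ± 0.11 (SE, 95% interval -0.12 to 0.37, edgeR adjusted p = 0.656). *Pvt1* and *Tug1* were thus the 2 of 6 in which every iASPP-KO library lay above every iASPP-WT library, as in 5.26% of all names tested, and in none of the 6 did every iASPP-KO library lie below every iASPP-WT library (5.46%).

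**Figure D3:**
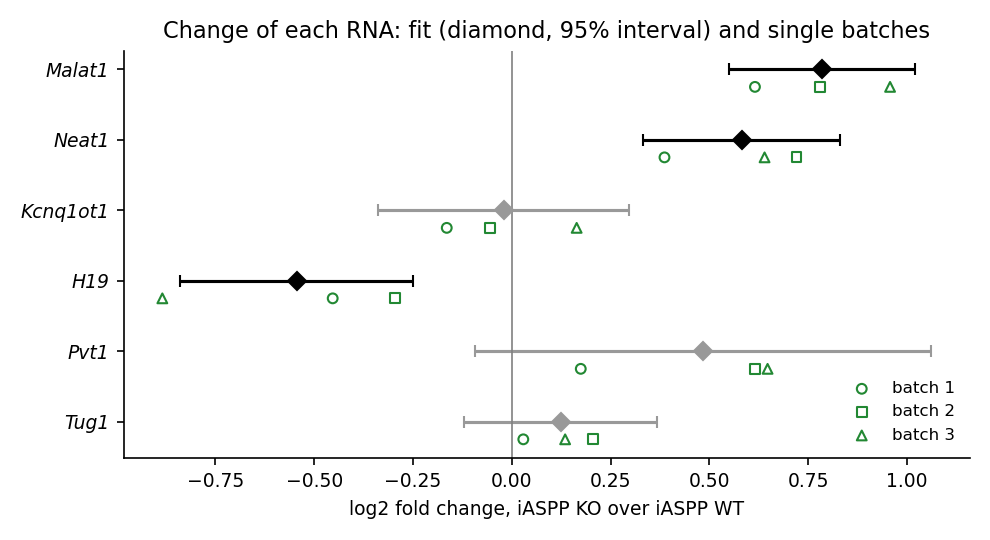
Log2 fold change of each RNA, iASPP-KO over iASPP-WT (horizontal axis), as fitted over 3 batches (diamonds, with 95% intervals, black where the adjusted p is under 0.05 and grey otherwise) and in single batches (open green symbols). The intervals of *Malat1* and *Neat1* lie above 0 and that of *H19* below it, and the single batches of *Kcnq1ot1* fall on both sides of 0.

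Of 18 genes that encode paraspeckle proteins, which assemble with *Neat1*, all were tested, with a median log2 fold change of -0.07. None was higher, where 2.17% of all names tested were, and 1 was lower (1.95%). The 1 was *Nono*, one of the core proteins bound to the long form of *Neat1*, which measured 97.2, 112 and 128 CPM in iASPP-KO batches 1 to 3 and 150, 164 and 165 CPM in iASPP-WT. *Nono* fell in every batch, opposite in direction to *Neat1*, with a log2 fold change of -0.52 ± 0.11 (SE, n = 3 per condition, edgeR adjusted p = 0.0334), and the call was lost without batch 1 (adjusted p = 0.205) or batch 2 (0.214). Its usual partners *Sfpq* (-0.22, adjusted p = 0.367) and *Pspc1* (0.06, adjusted p = 0.912) did not pass.

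None of 23 genes for nuclear speckle proteins and SR splicing factors passed in either direction with edgeR, where 4.12% of all names tested did. With DESeq2, 1 of the 23 genes was lower. Their median log2 fold change was -0.13, and 6 of 23 had an unadjusted p under 0.05 (2498 of 14916 over all names). The smallest adjusted p values belonged to the splicing factors *Srsf2* (log2 fold change -0.39 ± 0.11, edgeR adjusted p = 0.0968) and *Srsf3* (-0.37 ± 0.13, 0.185). *Srsf2* measured 445, 495 and 480 CPM in iASPP-KO batches 1 to 3 and 557, 594 and 717 CPM in iASPP-WT, and these groups did not overlap. Its adjusted p was 0.0268 with DESeq2.

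Of 24 names in or beside the imprinted region of distal chromosome 7 that holds *H19* and *Kcnq1ot1*, 16 were tested. Of these, 2 were higher, where 2.17% of all names tested were, and none was lower (1.95%). Their median log2 fold change was 0.31, and 4 were higher with DESeq2. *Tnfrsf23*, a decoy receptor for the death ligand TRAIL, rose by 0.80 ± 0.14 (SE, edgeR adjusted p = 0.0146, and 0.0847 without batch 1). *Ctsd*, which encodes the lysosomal protease cathepsin D and lies next to the cluster, rose by 0.65 ± 0.11 (adjusted p = 0.00980), in all 3 batches. The protein-coding genes that are the best known partners of the 2 RNAs were scarce or did not pass: *Igf2*, the growth factor gene that shares enhancers with *H19*, had 0 to 12 counts per library, and *Cdkn1c*, a cell cycle inhibitor gene in the *Kcnq1ot1* domain, had a log2 fold change of 0.32 ± 0.42 (edgeR adjusted p = 0.779).

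Among 26 tested imprinted genes from other regions, 1 was lower, where 1.95% of all names tested were, and none was higher (2.17%). Their median log2 fold change was 0.10, and with DESeq2 1 was lower and 3 were higher. *Slc38a4*, an amino acid transporter gene, measured 22.9, 11.6 and 24.98 CPM in iASPP-KO batches 1 to 3 and 32.3, 22.4 and 62.3 CPM in iASPP-WT. It fell by 0.92 on the log2 scale (SE 0.18, n = 3 per condition, edgeR adjusted p = 0.0223, and 0.0886 without batch 2), and, like *H19*, it was highest in iASPP-WT batch 3.

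None of 25 other tested long noncoding RNAs passed with edgeR, where 4.12% of all names tested did, and 1 was higher with DESeq2. Their median log2 fold change was -0.15, and 2 of them had an unadjusted p under 0.05. These were *Lncpint*, a p53-induced RNA (log2 fold change 1.78 ± 0.47, edgeR adjusted p = 0.0672, DESeq2 adjusted p = 0.0235, with 49 to 131 counts in iASPP-KO and 8 to 53 in iASPP-WT), and *Dleu2*, the host of miR-15a and miR-16 precursors (-0.73 ± 0.25, 0.152).

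**Figure D4:**
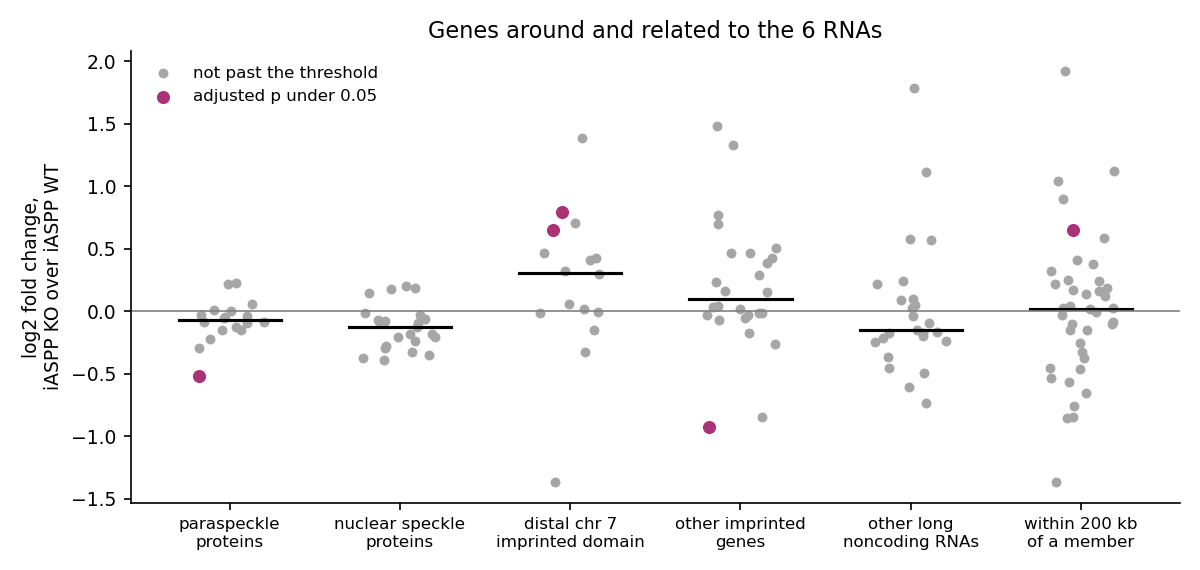
Log2 fold change, iASPP-KO over iASPP-WT (vertical axis), of the tested genes of 6 lists: paraspeckle proteins, nuclear speckle proteins, the distal chromosome 7 imprinted domain, other imprinted genes, other long noncoding RNAs and names within 200 kb of one of the 6 RNAs. Each point is a gene, purple where the adjusted p is under 0.05, black lines are list medians (-0.15 to 0.31), and genes within 200 kb may also stand in another list.

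Genes near the 6 RNAs were counted in the same way. Of 107 other names within 200 kb, 40 were tested, 1 (*Ctsd*) was higher and none was lower, with a median log2 fold change of 0.02. *Frmd8os*, 0.145 kb from the start of *Neat1*, was near the counting limit at 5 to 18 counts. The nearest tested name on a side could lie farther away. Around *Kcnq1ot1*, *Tssc4* (log2 fold change -0.15, edgeR adjusted p = 0.656) did not pass, nor did *Mrpl23* (-0.33, 0.825) and *Ascl2* (1.38, 0.573), 389 kb away, around *H19*. *Gsdmc*, 1398 kb from *Pvt1* on its other side (0.31, 0.837), and *Smtn* (-0.03, 0.956) and *Osbp2* (1.92 at 0 to 27 counts, 0.554) beside *Tug1*, did not pass either.

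Genes with the most similar pattern were ranked by the root mean square difference of mean-centred log2 CPM over the 6 libraries, a description that includes the batch differences. For *Malat1* these were *Nabp1*, a single-stranded DNA binding protein gene (0.0568, with its own log2 fold change of 0.81), and *Rnf222* (0.119). *Neat1* ranked 24th for *Malat1* (0.220), and *Malat1* ranked 51st for *Neat1*, for which *Per2*, a clock gene, came first (0.0835). *Kcnq1ot1* was most like *Lrrk1* (0.0499) and *Zfp568* (0.0656), *H19* like *Plekha2* (0.0335) and *Cep76* (0.0922), *Pvt1* like *Ttc5* (0.0845) and *Tmem132a* (0.0862), and *Tug1* like *Arhgap12* (0.0240) and *Arih1* (0.0317). No other of the 6 came as near to *Malat1* or to *Neat1* as these 2 did to each other.

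Counting bears on these levels in 2 ways. Reads that meet another name on the same strand were dropped, which touches 86 of 6983 exon bases of *Malat1* (1.23%), 1.85% of *Neat1*, none of *Kcnq1ot1*, 3.41% of *H19*, 4.87% of *Pvt1* and 6.66% of *Tug1*. Of windows of 42 bases, the read length, 6.58% in *Malat1*, 1.67% in *Neat1* and 2.51% in *Kcnq1ot1* also occurred in a transcript of another name. They were shared with 1202, 750 and 2561 other names, among them names within or opposite the RNA itself, such as *Gm37376* opposite *Malat1*. Windows of such overlapping names are the same place in the genome and add no loss. Their part in these 3 shares was not counted, so the shares are not the loss to other places. The shares were 4.54% in *H19*, 4.76% in *Pvt1* and 7.25% in *Tug1*, all with short names within or opposite the RNA itself. For these 3 the shared windows are the same place in the genome, so they add no loss. Both ways apply to all 6 libraries.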

How the data were processed

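Total RNA from 6 cultures of primary keratinocytes was sequenced, 3 iASPP-KO and 3 iASPP-WT, grouped by the labels. Per the labels and the published methods, the authors trimmed reads with cutadapt 2.10, checked them with FastQC 0.11.9, aligned them to mm10 (GRCm38) with STAR 2.7.3, and deposited whole-number counts per gene name from featureCounts 2.0.0 (exons, stranded, GENCODE vM25, reads on several places not counted), not normalized. A deposited table of the authors' own DESeq2 comparison (fold changes and p-values) was not used. Every column of counts was used.

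The test was edgeR 4.0.16 run in R 4.3.3. Low counts were removed by filterByExpr, libraries were scaled by TMM (factors 0.916 to 1.11), and glmQLFit and glmQLFTest used batch and condition with Benjamini-Hochberg adjustment over 14916 names (common dispersion 0.0627, 2 residual and 8.17 prior degrees of freedom). The SE is the absolute log2 fold change over the square root of F. CPM uses TMM-scaled totals. Single-batch log2 fold changes use a prior count of 2. Members, lists and named genes were chosen with earlier results of these data known. Named besides the 6 RNAs are list members past the threshold (otherwise the pair with the smallest adjusted p), nearest tested neighbours and the pair most alike. *Sfpq*, *Pspc1*, *Igf2*, *Kcnq1*, *Col1a2*, *Col3a1*, *Csf1r*, *Pdgfra* and the names opposite *H19* and *Malat1* were added after their values were seen. 2 genes that the rule names are not reported here.

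The labels give the replicate number as the batch, and cells of each batch were divided between conditions. Deviations of same-batch cultures correlated at r = 0.302, 0.368 and 0.568, those of other pairs at -0.427 to 0.179. The sources used here do not state whether a batch is 1 pup or a pool, so p-values cannot be read as spread between animals. With batch in the model, differences in level between batches were removed. The p-values then measure the spread of the iASPP-KO to iASPP-WT difference from batch to batch, moderated towards that of other names. No library was a copy of another (chi-square per gene 40.1 to 169). Limits from depth cover counting error only, as no molecular tags were used. The alternatives tried are no batch term, DESeq2 1.42.0, other scalings and filters, robust dispersion, and leaving out each batch. Gene types and transcripts come from GENCODE vM21 (53365 names matched). The steps were tested on simulated data.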

Additional observations from a re-analysis of the deposited data

How the results depend on the processing

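*Malat1* passed in all 11 settings that kept the batch term (log2 fold change 0.70 to 0.87, adjusted p up to 0.0292), *Neat1* in 10 (0.51 to 0.68, up to 0.172) and *H19* in 8 (-0.67 to -0.37, up to 0.114). *Pvt1* (0.40 to 0.64) and *Tug1* (0.05 to 0.17) kept their direction and passed in none. With no replicate block, that is without pairing by batch, the estimates were 0.74 (*Malat1*, edgeR adjusted p = 0.977), 0.59 (*Neat1*, 0.977) and -0.59 (*H19*, 0.973), and 0 names, 0 of the 6 RNAs and 0 list genes passed, with 691 names and 3 list genes at an unadjusted p under 0.05. With scaling that left out the 20 most abundant and the mitochondrial names, *H19* stayed at -0.54 with an adjusted p of 0.0501. Names called over all genes, 614 in the reported fit (323 higher and 291 lower), were 1115 with no filter beyond 1 count, and list genes, 4 in the reported fit, were 11 with DESeq2, 12 with no filter, 7 with at least 10 counts in every library and 8 with robust dispersion. With library totals as the scale, 295 names were higher and 454 lower.

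Without the block, *Ppp1r13l*, *Nono*, *Tnfrsf23*, *Ctsd* and *Slc38a4* lost their calls too. Leaving out each batch in turn gave 0.70 to 0.87 for *Malat1*, 0.52 to 0.68 for *Neat1*, -0.67 to -0.37 for *H19* and -0.11 to 0.06 for *Kcnq1ot1*, which turned positive without batch 1 (0.05645) and without batch 2 (0.0017). Names called ranged from 291 without batch 2 to 1455 without batch 3, with 320 without batch 1. Of the 6 RNAs, 1 to 3 passed, with 1 without batch 2. List genes ranged from 2 without batch 2 to 9 without batch 3. Names that differed between batches numbered 2354 in the reported fit and 689 (without batch 3) to 2644 (without batch 1) in these. Fewer samples were used in these fits. The cause of the other changes was not tested. Depth limits *Pvt1* most, at 130 to 231 counts per library.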

Other observations

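Reads were also counted on the strand opposite to *H19*. *Gm27483*, a name of 71 bases that lies wholly opposite *H19* exons, had 169, 207 and 196 counts in iASPP-KO batches 1 to 3 and 290, 269 and 418 in iASPP-WT. These were 3.92% to 6.43% of the *H19* counts of the same library, and per base 136% to 223% of the *H19* level. Its log2 fold change was -0.75 ± 0.24 (SE, n = 3 per condition, edgeR adjusted p = 0.133). *Gm27786*, opposite another stretch of *H19*, had 0 to 9 counts, per base 0% to 6.32% of the *H19* level. *Gm37376*, opposite *Malat1*, had 343, 370 and 190 counts in iASPP-KO and 629, 56 and 59 in iASPP-WT, which is 0.0124% to 0.222% of the *Malat1* counts. In iASPP-KO its batches stood in the order of *Malat1*, and in iASPP-WT they did not.

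The 6 RNAs together took 2.06%, 3.32% and 0.995% of all counts in iASPP-KO batches 1 to 3 and 1.51%, 2.01% and 0.588% in iASPP-WT, most of it from *Malat1*. Short structured RNAs, a class largely without poly(A) tails, took 10.9%, 7.93% and 11.1% in iASPP-KO and 7.77%, 8.28% and 7.45% in iASPP-WT. Their share was higher in iASPP-KO in batches 1 and 3 and lower in batch 2, the batch in which *Malat1* was highest.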
